A study of Mus musculus with 28 samples.

Results

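The genes described here encode the proteasome, and were taken as the gene symbols that begin with Psma to Psmg and a number, leaving out pseudogene names. There were 50 such genes among the 49341 in the deposited gene table. The rule also asked for a value of at least log2(10) in 3 or more of the 24 libraries, and all 50 members met it, as did 24911 genes in all. By role, 31 members are structural subunits of the rings, the ATPase ring, the base and the lid. The others are assembly chaperones, activators, an inhibitor, and catalytic or ring subunits of tissue-specific proteasomes. One further member, Psmc3ip, shares the prefix but is a meiotic recombination factor and not a proteasome part.

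RNA came from laser-captured hippocampus of 3 male mice aged 6 to 8 weeks, numbered 492, 496 and 502, from separate litters. All groups carried the same Amigo2-EGFP reporter, labelled Amigo2-GFP C57BL/6J, and no group was treated. In each mouse 4 subregions were captured, namely the pyramidal fields CA1, CA2 and CA3 and, as DG, the dentate gyrus. Each subregion gave a dendritic library (stratum radiatum, or the molecular layer in DG) and a cell body library (stratum pyramidale, or the granule cell layer), so that each of the 8 groups had 3 libraries. The labels list a repeat for 4 dendritic libraries, those of CA2 and DG in mice 492 and 502, with titles and animal labels that disagree for some. Whether the table holds the first or the repeated library was not stated. Dendritic libraries were made from 1 ng of RNA and cell body libraries from 5 ng, so input amount and compartment cannot be told apart. The layers are tissue and not isolated dendrites: the dendritic layer also holds glia, vessels, interneurons and axons. In such bulk samples, fewer cells of a type and less RNA per cell cannot be told apart.

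The proteasome degrades proteins tagged with ubiquitin. Its 20S core is a barrel of alpha and beta rings with proteolytic sites inside, and the 19S cap binds, deubiquitinates, unfolds and feeds in the substrate. Proteasomes are present in dendrites and spines of hippocampal neurons, where protein degradation takes part in synaptic plasticity.

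Values are the authors' log2 values, and a difference is the dendritic layer minus the cell body layer, averaged over the 4 subregions unless one is named. "Fell" and "rose" are used for differences with an adjusted p below 0.05 in limma. The structural subunits fell as a group. Between compartments 38 of the 50 members fell, 2 were called higher (Psmb8 and Psme2b) and 10 did not pass the test, whereas 45.2% of all genes tested passed it in either direction, 25.4% as lower and 19.8% as higher. All 31 structural subunits fell, with a median difference of -1.01 against -0.20 for all genes tested. The same share was taken over abundant genes, those with a mean log2 value of at least 10, a level chosen after the values were seen. Of those, 48.2% fell, and 30 of the 31 members at that level did. In 8 members, 7 of them structural subunits, all 12 dendritic values lay below all 12 cell body values, against 1.37% of genes tested. Paired by mouse and subregion, 23 members were lower in 12 of 12 pairs, 22 of them structural subunits. The share of all genes tested that were lower in every pair was not taken, so how unusual this count is remains unknown.

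**Figure D1:**
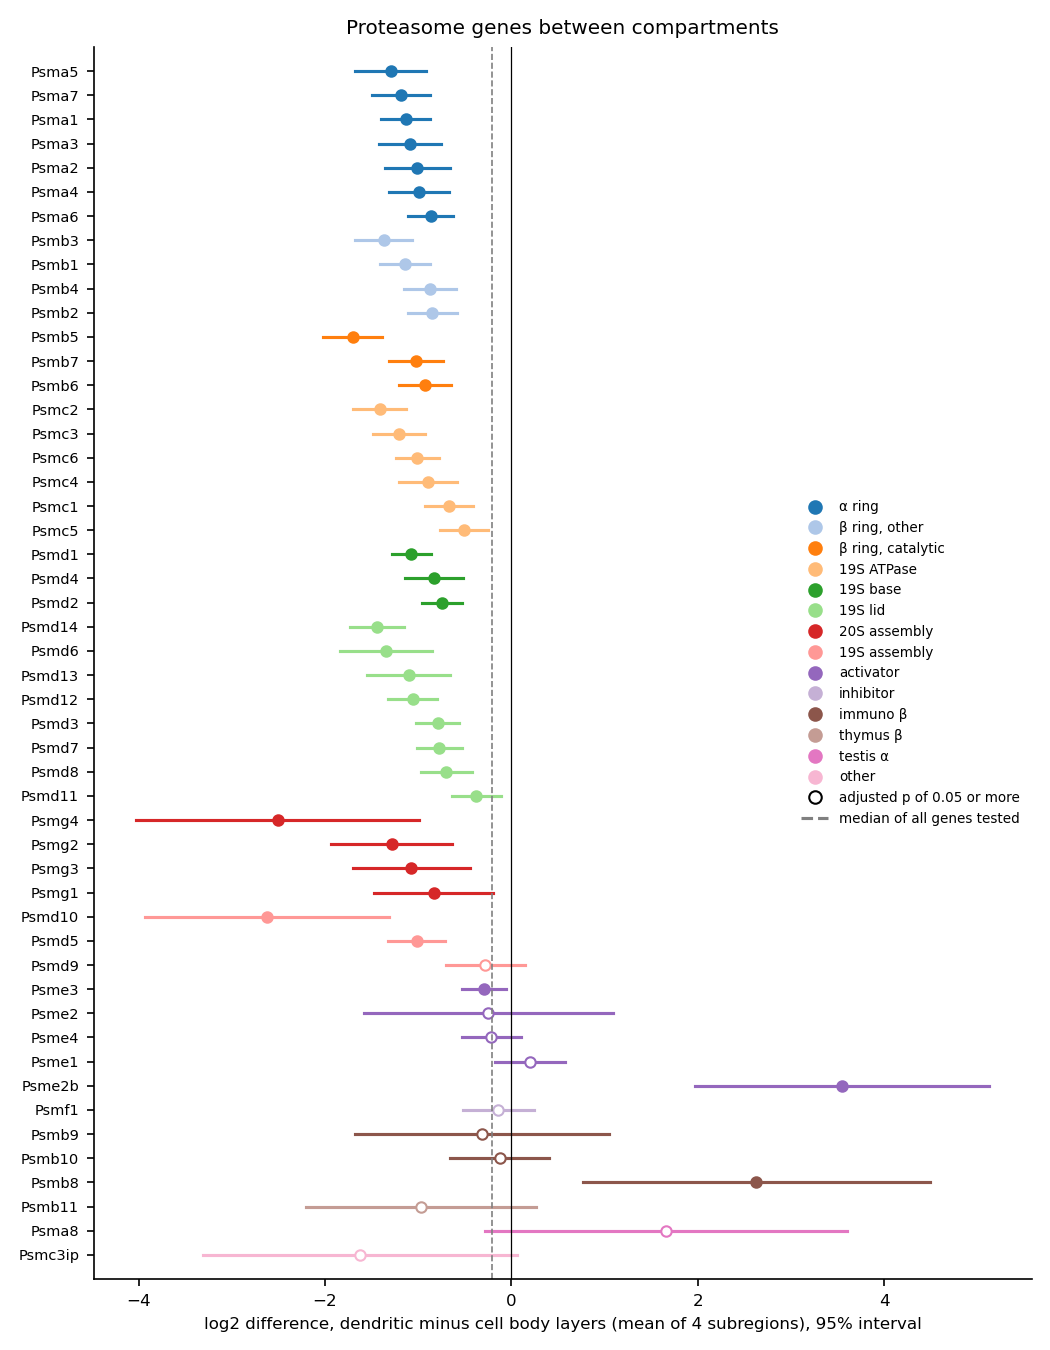
Log2 difference of each member between dendritic and cell body layers, averaged over 4 subregions, with 95% intervals from limma; colour gives the role, filled points have an adjusted p below 0.05, and the dashed line is the median of all genes tested. All structural subunits lie left of that line, from -1.70 for Psmb5 to -0.38 for Psmd11, while Psmb8 and Psme2b lie to the right of 0.

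Among library measures, the mitochondrial genome took 29.5% to 46.9% of the unlogged total in dendritic layers and 4.21% to 9.07% in cell body layers. The 31 structural subunits together took 0.0644% to 0.0925% of that total in dendritic layers and 0.201% to 0.227% in cell body layers. Outside the mitochondrial genome the shares were 0.0957% to 0.137% in dendritic layers and 0.217% to 0.241% in cell body layers, so the compartments did not overlap on either basis. Cell type markers moved with the compartment too. All 14 astrocyte, 12 microglia, 13 oligodendrocyte and 11 endothelial markers rose. Summed unlogged, the astrocyte markers reached 581324 to 1172442 in dendritic layers and 63116 to 170521 in cell body layers, and the oligodendrocyte markers 123306 to 252042 in dendritic layers and 12637 to 56420 in cell body layers. Of 12 neuronal markers 11 fell and 1 rose, with a median of -1.25. They include Slc17a7, Camk2a and Neurod6, so the set is not pan-neuronal. Pooled over subregions their sum overlapped, at 545858 to 1337712 in dendritic layers and 254995 to 1035101 in cell body layers. In CA1 it was higher in dendrites, at 875306 to 1337712 against 437050 to 464248 in cell bodies. So it was in DG, at 630573 to 852349 against 254995 to 269773. In CA2 it was lower in dendrites, at 545858 to 739882 against 860635 to 998110, and in CA3 the layers overlapped. No marker of these lists was at 0 throughout a compartment. Their part in the fall of the subunits was not tested.

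**Figure D2:**
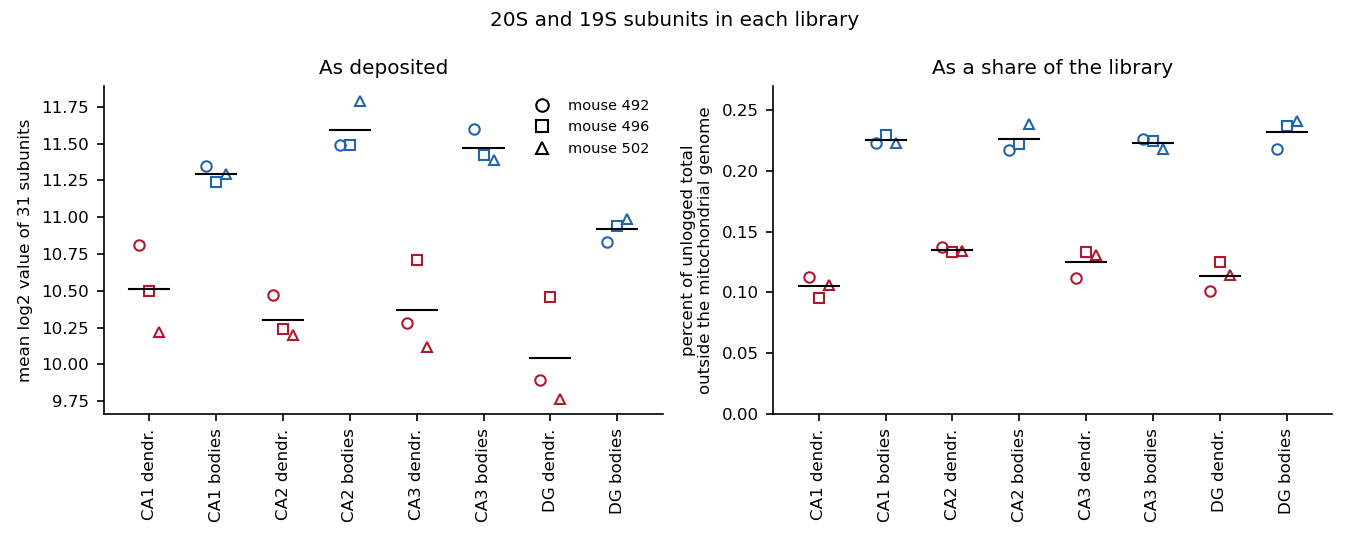
Mean log2 value of the 31 structural subunits (left) and their share of the unlogged library total outside the mitochondrial genome (right, axis from 0) in each of the 24 libraries, dendritic layer left of cell body layer for each subregion; symbols are mice and bars are means of 3. As a share, all dendritic libraries lie at 0.0957% to 0.137% and all cell body libraries at 0.217% to 0.241%.

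The alpha rings form the gates of the core. All 7 of their subunits fell, from -0.87 for Psma6 to -1.30 for Psma5. Psma5 ranged from 7.92 to 9.82 around a median of 9.04 in dendritic layers, and from 10.15 to 10.98 around a median of 10.41 in cell body layers, and the compartments did not overlap. Psma7 ranged from 8.999 to 10.89 in dendritic layers and from 10.61 to 11.48 in cell body layers, a difference of -1.19 ± 0.15 (SE, adjusted p = 3.83e-07, limma). Its ranges overlapped, although it was lower in 12 of 12 pairs.

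Of the beta ring, the 3 constitutive catalytic subunits and the 4 other subunits all fell. Psmb5, which carries the chymotrypsin-like activity, had the largest fall of any structural subunit. Its lowest, median and highest values were 8.98, 9.84 and 10.48 in dendritic layers and 10.73, 11.44 and 12.02 in cell body layers. The compartments did not overlap, and the difference was -1.70 ± 0.15 (SE, adjusted p = 1.27e-09, limma), or 0.307-fold. It was lower in 12 of 12 pairs. Psmb7, the trypsin-like subunit, and Psmb6, the caspase-like subunit, fell by 1.02 and 0.92 on the log2 scale. Among the others, which have no proteolytic site, Psmb3 fell the most, at -1.37 ± 0.15 (SE, adjusted p = 2.94e-08, limma), and Psmb2 the least, at -0.85.

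Promoter windows are shown for Psmb5, the structural subunit with the largest fall, for Psmb3, the member whose difference changed between subregions, and for Psme4, an activator whose difference did not pass the test. These 3 were picked after the values and the matches were seen. The windows run from upstream of the start of the gene to just after it, 5′ to 3′ on its strand, from RefSeq on GRCm38.p6. They lie at chr14:54617946-54618245 on the minus strand for Psmb5, and at chr11:97703184-97703483 and chr11:30771525-30771824 on the plus strand for Psmb3 and Psme4. Capitals mark the antioxidant response element core TGACNNNGC, read by Nfe2l1 and Nfe2l2, in Psmb5 and Psme4, and the CCAAT box, read by NF-Y, in Psmb3.
Psmb5: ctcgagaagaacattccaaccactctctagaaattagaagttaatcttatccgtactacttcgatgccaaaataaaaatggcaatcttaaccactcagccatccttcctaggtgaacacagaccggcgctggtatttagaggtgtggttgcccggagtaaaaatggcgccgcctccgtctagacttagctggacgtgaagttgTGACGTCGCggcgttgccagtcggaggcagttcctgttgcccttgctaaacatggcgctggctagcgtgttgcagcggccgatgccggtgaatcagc
Psmb3: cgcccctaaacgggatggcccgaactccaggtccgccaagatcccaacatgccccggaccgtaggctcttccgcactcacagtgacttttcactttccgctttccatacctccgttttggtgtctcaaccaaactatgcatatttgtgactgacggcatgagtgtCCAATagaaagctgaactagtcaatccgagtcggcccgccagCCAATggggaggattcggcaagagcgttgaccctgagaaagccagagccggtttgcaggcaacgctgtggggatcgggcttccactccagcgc
Psme4: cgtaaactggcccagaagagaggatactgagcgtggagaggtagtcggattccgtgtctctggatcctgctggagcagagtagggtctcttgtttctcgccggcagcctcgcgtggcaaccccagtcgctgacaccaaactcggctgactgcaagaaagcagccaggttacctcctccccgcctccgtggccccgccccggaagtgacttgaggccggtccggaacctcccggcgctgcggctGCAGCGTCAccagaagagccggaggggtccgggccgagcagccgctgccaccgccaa
Both motifs were searched on both strands, as GCNNNGTCA and ATTGG on the other one, and they do not overlap here. RefSeq windows matched 42 of the 50 members. The response element core was found in 6 of them (14.3%) and in 12.5% of all genes with a window, and the CCAAT box in 15 (35.7%) and in 37.9%. The share of the response element core among members was close to that of all genes. Psmb5 and Psme4 both carry it, but they were picked with the matches known. A link between either motif and the differences was not tested.

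The 19S base holds the 6 ATPases that unfold the substrate, and all 6 fell. Psmc2 fell the most. Its values ranged from 9.51 to 10.95 around a median of 10.16 in dendritic layers, and from 11.31 to 12.05 around a median of 11.56 in cell body layers, without overlap. The difference was -1.41 ± 0.14 (SE, adjusted p = 5.79e-09, limma). Psmc5 fell the least, at -0.51 ± 0.13 (SE, adjusted p = 0.0017, limma), and without mouse 502 its adjusted p was 0.13. Psmd1 and Psmd2, the scaffolds of the base, and the ubiquitin receptor Psmd4 fell by 1.07, 0.74 and 0.83 on the log2 scale.

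All 8 lid subunits fell. Psmd14, the deubiquitinase that removes the ubiquitin chain from the substrate, fell the most. Its lowest, median and highest values were 9.41, 10.11 and 10.72 in dendritic layers and 10.93, 11.50 and 12.06 in cell body layers. The ranges did not overlap, and the difference was -1.44 ± 0.14 (SE, adjusted p = 5.54e-09, limma), or 0.368-fold. Psmd11 fell the least of the 31, at -0.38 ± 0.13 (SE, adjusted p = 0.0168, limma). It was lower in 9 of 12 pairs, and its adjusted p was 0.104 without mouse 492 and 0.329 without mouse 502.

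**Figure D3:**
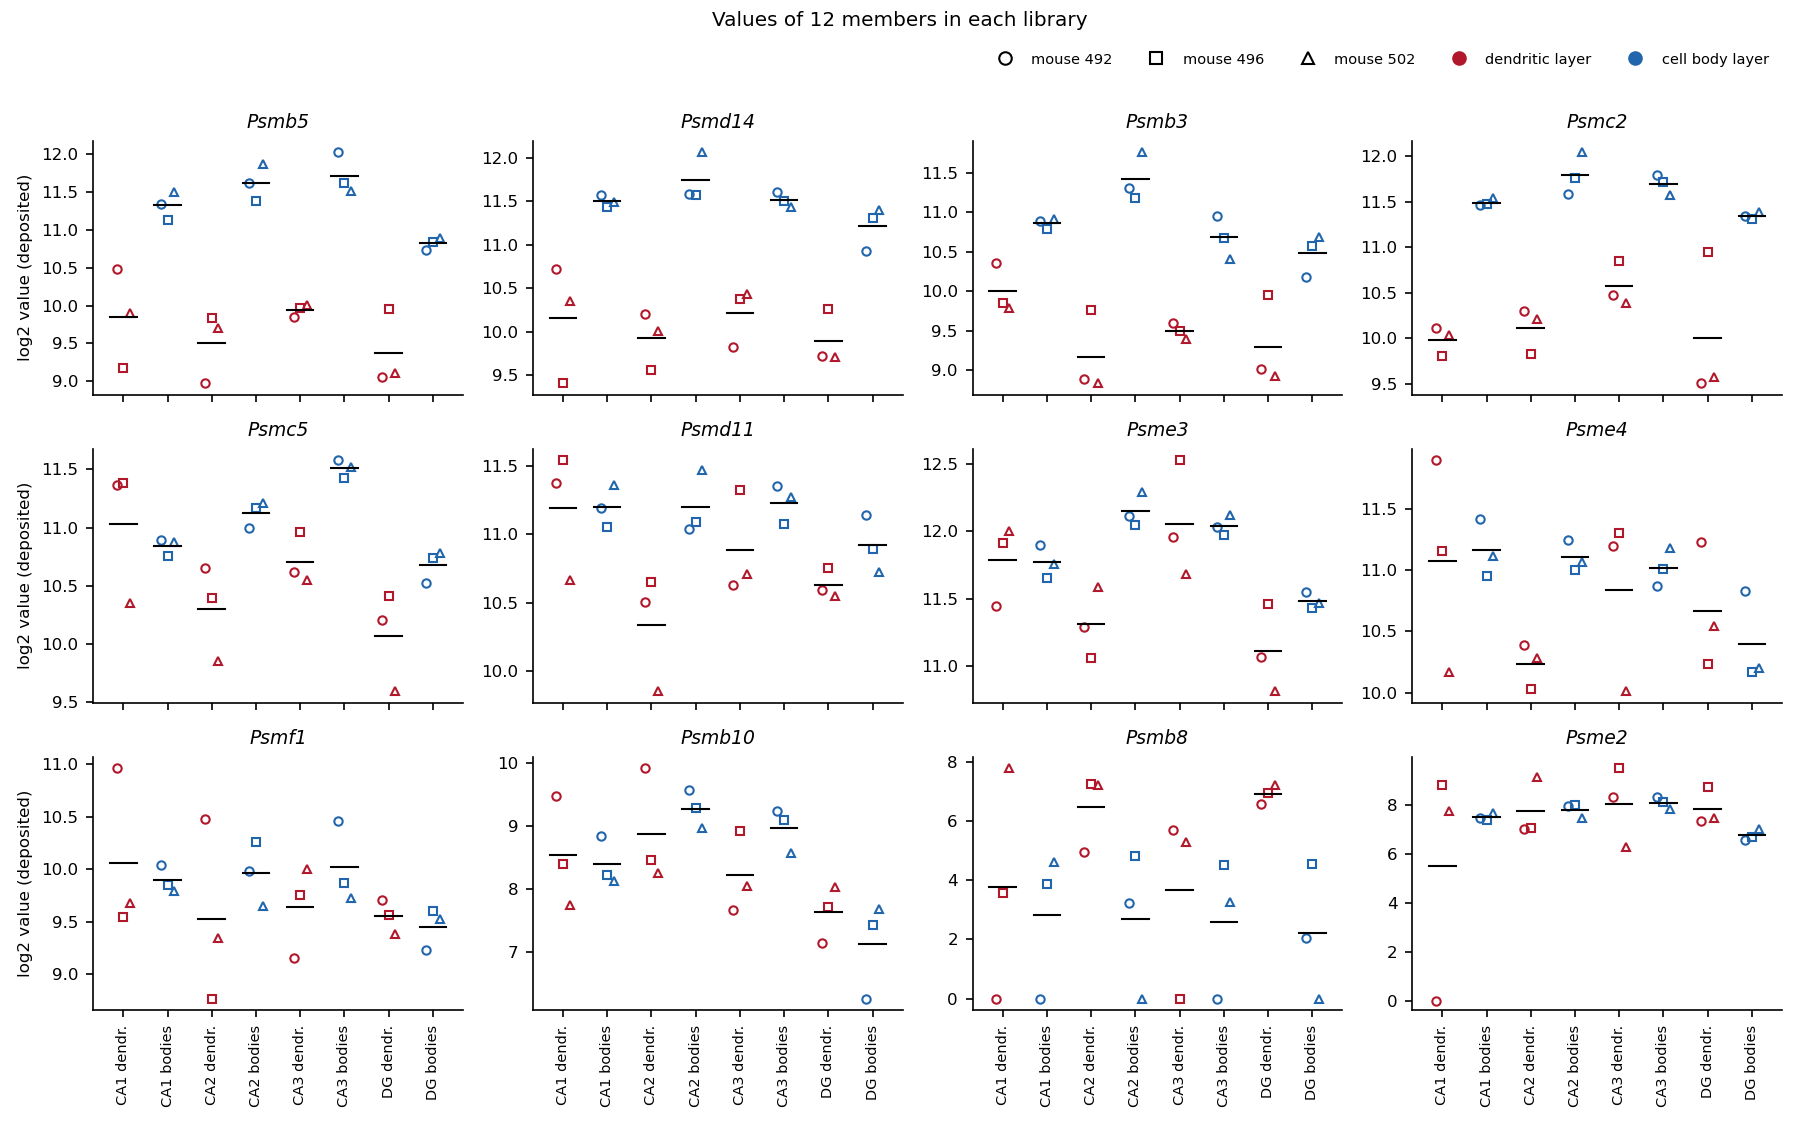
Deposited log2 values of 12 members in each library, dendritic layer (red) left of cell body layer (blue) for each subregion; symbols are mice and bars are means of 3. Psmb5, Psmd14 and Psmc2 separate the compartments in every subregion, whereas Psme4 and Psmf1 overlap, and Psmb8 is spread from 0 to 7.79 in dendritic layers and from 0 to 4.82 in cell body layers.

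Chaperones that assemble the particle mostly fell as well. The 4 chaperones of the core, Psmg1 to Psmg4, fell from -0.83 for Psmg1 to -2.51 for Psmg4. These are low transcripts: Psmg4 ranged from 0 to 7.10 around a median of 6.09 in dendritic layers and from 6.43 to 8.47 around a median of 7.04 in cell body layers. It was listed at 0 in 1 dendritic library each of CA2, CA3 and DG, and without mouse 496 its adjusted p was 0.0799. Of the chaperones of the base, Psmd10 (gankyrin) fell by 2.62 and Psmd5 by 1.01 on the log2 scale. Psmd9 had a difference of -0.28 (adjusted p = 0.285, limma).
Psmd10 was also low, from 0 to 7.81 in dendritic layers and from 7.84 to 8.69 in cell body layers, with no overlap.

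Activators bind the core in place of the cap. Of the 5 members of this role, Psme3 fell, Psme2b was called higher through dendritic values alone, and 3 did not pass the test. Psme4 (PA200) ranged from 10.01 to 11.90 around a median of 10.47 in dendritic layers, and from 10.16 to 11.42 around a median of 11 in cell body layers. The ranges overlapped, and its difference was -0.22 ± 0.15 (SE, adjusted p = 0.267, limma). Psme3 (PA28 gamma) fell, but only by 0.29 on the log2 scale (adjusted p = 0.0356, limma), with an adjusted p of 0.314 without mouse 492 and 0.158 without mouse 502. Psme1 and Psme2, the PA28 alpha and beta subunits that interferon induces, had differences of 0.20 and -0.25 with adjusted p of 0.387 and 0.791 (limma). That of Psme1 was -0.30 when libraries were scaled to their totals, and that of Psme2 was 0.58 without mouse 492. Psmf1 (PI31), which inhibits the core in vitro, had a difference of -0.14 (adjusted p = 0.576, limma), or 0.04 without mouse 496. Scaled to totals, where the median of all genes tested was -0.63, Psme4 and Psmf1 passed as lower, at -0.72 and -0.64 (adjusted p = 9.31e-05 and 0.00312, limma).

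Psme2b met the limit of log2(10) in dendritic libraries alone, so that a higher dendritic value was built into its being tested, and its calls as higher support nothing. It is a close copy of Psme2 that overlaps 9930111J21Rik1 on the same strand, so reads from these genes may have been split among them and its level is uncertain. Its values ranged from 0.44 to 7.54 around a median of 5.76 in dendritic layers, and from 0 to 2.99 around a median of 0.33 in cell body layers. It was listed at 0 in all 3 DG cell body libraries.

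In cells exposed to interferon, and constitutively in immune cells, Psmb8, Psmb9 and Psmb10 replace Psmb5, Psmb6 and Psmb7 in the immunoproteasome. Psmb8 rose, at 2.63 ± 0.90 (SE, adjusted p = 0.0196, limma). Its lowest, median and highest values were 0, 6.14 and 7.79 in dendritic layers and 0, 3.25 and 4.82 in cell body layers. It was higher in 9 of 12 pairs and lower in 2, and its adjusted p was 0.064 without mouse 492 and 0.298 without mouse 502. In DG dendrites it had 6.57, 6.95 and 7.23 in mice 492, 496 and 502, against 2.06, 4.55 and 0 in DG cell bodies. In CA1 dendrites it had 0, 3.56 and 7.79, against 0, 3.87 and 4.62 in CA1 cell bodies, so the groups overlapped there. The 12 microglia markers summed to 55092 to 60291 in CA1 dendrites and 31598 to 40434 in DG dendrites, and to 2777 to 4340 in cell body layers. Their part in the difference of Psmb8 was not tested.

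Psmb10 had a difference of -0.13 (adjusted p = 0.725, limma), with ranges of 7.14 to 9.92 in dendritic layers and 6.24 to 9.58 in cell body layers. Psmb9 had a difference of -0.32 (adjusted p = 0.734, limma) and was listed at 0 in all 3 dendritic libraries of CA1 and of CA3. With 10 added to the unlogged values before the log, its difference was 0.20. Psmb9 lies on chromosome 17 from 34181987 to 34187764 (GRCm38) and overlaps Tap1 on the other strand, so reads of these genes may be mixed.

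Within a library, the log2 difference between an immune subunit and the subunit it replaces does not depend on a scaling factor, apart from the 1 added before the log. Psmb10 minus Psmb7 averaged -2.59 in dendritic layers and -3.48 in cell body layers, a difference of 0.89 ± 0.62 (SD, 12 pairs). It was higher in 11 of 12 pairs (two-sided exact permutation test swapping labels within pairs, adjusted p = 0.00293 over 3 comparisons). Of the 2 genes, Psmb7 fell by 1.02 on the log2 scale and Psmb10 had a difference of -0.13. The 0.89 is thus the fall of Psmb7 already given, and no part of it is a rise of Psmb10. Psmb8 minus Psmb5 averaged -4.46 in dendritic layers and -8.79 in cell body layers, a difference of 4.33 ± 3.53 (SD, 12 pairs), higher in 11 of 12 (same exact test, adjusted p = 0.00366). Part of the 4.33 is the fall of Psmb5 by 1.70 on the log2 scale, beside the rise of Psmb8 by 2.63. Psmb8 alone was higher in 9 of 12 pairs. It was listed at 0 in 2 dendritic and 4 cell body libraries, where the difference holds only the value of Psmb5 and does depend on scaling. In DG, Psmb10 minus Psmb7 averaged -2.87 ± 0.75 in dendrites and -4.29 ± 0.50 in cell bodies (SD, n = 3 each), and in CA3 -2.97 ± 0.37 in dendrites and -3.16 ± 0.21 in cell bodies. For Psmb8 minus Psmb5, without mouse 502 the difference was 3.16, and without the 4 libraries that have a repeat it was 2.88, each with an adjusted p of 0.0586 (same exact test). Psmb9 minus Psmb6 differed by 0.61 ± 2.84 (SD, 12 pairs; same exact test, adjusted p = 0.46), and by 1.11 with 10 added before the log (adjusted p = 0.0142). The 4 pairs of a mouse are not separate animals, and these p-values treat them as exchangeable.

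Members of other tissues were at low values. The thymus subunit Psmb11 had a difference of -0.97 (adjusted p = 0.197, limma) and the testis alpha subunit Psma8 one of 1.66 (adjusted p = 0.16, limma). Psma8 was listed at 0 in at least 1 library of every group. Psmc3ip had a difference of -1.62 (adjusted p = 0.11, limma), overlaps Mlx on the other strand, and passed as lower under quantile normalization, scaling to totals and without mouse 492.

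Per kilobase of transcript, the structural subunits were within a few fold of each other in both compartments. Unlogged estimates were summed over the transcripts of a gene and divided by their lengths. The medians over 12 libraries ran from 378 to 1530 per kilobase in dendritic layers and from 866 to 3560 in cell body layers, 4.05-fold and 4.11-fold from lowest to highest. Psmb7 was the highest in both compartments, at 1530 in dendritic layers and 3560 in cell body layers. Psmb5 was at 954 in dendritic layers and 3230 in cell body layers, while Psmd11 was at 444 in dendritic layers and 866 in cell body layers. Psme4 was at 178 in dendritic layers and 387 in cell body layers, and Psmb8 at 36.4 in dendritic layers and 4.99 in cell body layers, below every structural subunit. These values come from the transcript table, which was scaled apart from the gene table, and the compartment differences of the 2 tables are not the same. For Psme4 the log2 difference between the compartment medians was -1.12 from the summed transcripts and -0.53 from the gene table, and for Psmd11 it was -0.96 from the summed transcripts and -0.46 from the gene table. The median over structural subunits was -1.24 from the transcripts and -1.05 from the gene table. The cause was not tested.

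With all 24 libraries kept, the fall was found in all 4 subregions. In CA1, 19 members fell and 0 rose, where 24.8% of genes tested passed in either direction and 9.56% fell. In CA2, 34 fell and Psme2b was called higher (28% of genes passed and 17.2% fell). In CA3, 32 fell and 0 rose (22.1% passed and 11.4% fell). In DG, 19 fell and Psme2b was called higher (22.3% passed and 9.31% fell). Of the structural subunits, 17, 30, 29 and 18 of 31 fell in CA1, CA2, CA3 and DG, with medians of -0.83, -1.23, -1.07 and -0.87. That order depended on scaling: under quantile normalization the numbers were 26, 22, 28 and 27, with medians of -1.15, -0.79, -0.87 and -0.99. Of the neuronal markers, 4, 11, 11 and 7 of 12 fell in the 4 subregions. Left out in turn, the mice gave 7 to 15 members called in CA1, 19 to 33 in CA2, 12 to 28 in CA3 and 2 to 19 in DG. The lowest count was in each case the one without mouse 502. The count was 10 in CA1 without mouse 496, and 13 in CA3 and 10 in DG without mouse 492. Without mouse 502, DG had 1 member lower and 1 higher, and 1 of the 31 structural subunits fell. Without the 4 dendritic libraries for which the labels list a repeat, the median of the structural subunits in DG was -0.47. That leaves 1 dendritic library, of mouse 496, in DG and in CA2, which is assumed to vary like the other groups, here and wherever these 4 are left out.

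The mean log2 value of the 31 structural subunits was 10.51 ± 0.30 in CA1 dendrites and 11.29 ± 0.06 in CA1 cell bodies (SD, n = 3 each here and for the other subregions). In CA2 it was 10.30 ± 0.15 in dendrites and 11.59 ± 0.17 in cell bodies, in CA3 10.37 ± 0.31 in dendrites and 11.47 ± 0.11 in cell bodies, and in DG 10.04 ± 0.37 in dendrites and 10.92 ± 0.08 in cell bodies. In each subregion the 3 dendritic libraries lay below the 3 cell body libraries, and the dendritic libraries varied more than the cell body ones in CA1, CA3 and DG.

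For Psmb5, CA1 dendrites had 10.48, 9.17 and 9.90 in mice 492, 496 and 502, against 11.34, 11.13 and 11.50 in CA1 cell bodies. CA2 dendrites had 8.98, 9.83 and 9.70, against 11.61, 11.38 and 11.87 in CA2 cell bodies. The layers did not overlap in either. CA3 dendrites had 9.86, 9.96 and 10.00, against 12.02, 11.61 and 11.51 in CA3 cell bodies, and DG dendrites had 9.06, 9.95 and 9.11, against 10.73, 10.84 and 10.90 in DG cell bodies. There too the layers were apart, with DG cell bodies the lowest of the cell body groups.
Psmb5 fell in each subregion, by 1.47, 2.12, 1.78 and 1.45 on the log2 scale in CA1, CA2, CA3 and DG. In DG its adjusted p was 0.0739 without mouse 502 and 0.265 without the 4 libraries with a repeat. Psmc1, Psmc5 and Psmd11 had differences of -0.12, 0.19 and -0.01 in CA1, where none of the 3 passed (adjusted p = 0.791, 0.643 and 1, limma). All 3 fell in CA2, by 0.93, 0.82 and 0.86 on the log2 scale. Psme4 fell in CA2 alone, by 0.87 (adjusted p = 0.0358, limma), with differences of -0.09, -0.18 and 0.27 in CA1, CA3 and DG. In CA1 dendrites Psme4 had 11.90, 11.16 and 10.17 in mice 492, 496 and 502, against 11.42, 10.95 and 11.12 in CA1 cell bodies. Leaving out mice 492 and 496 of CA1 dendrites, which keeps 1 CA1 dendritic library, its difference over all subregions was -0.41 (adjusted p = 0.0303, limma). For Psme4 the change of the difference in CA2 against the other subregions had an adjusted p of 0.155 (limma). Psmd14 and Psmc2 fell in each subregion, Psmd14 by 1.34, 1.81, 1.30 and 1.31 and Psmc2 by 1.504, 1.68, 1.13 and 1.34 on the log2 scale. In DG neither passed without the 4 libraries that have a repeat (1 DG dendritic library left, adjusted p = 0.204 for Psmd14 and 0.403 for Psmc2, limma) or without mouse 502 (0.0845 and 0.072).

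**Figure D4:**
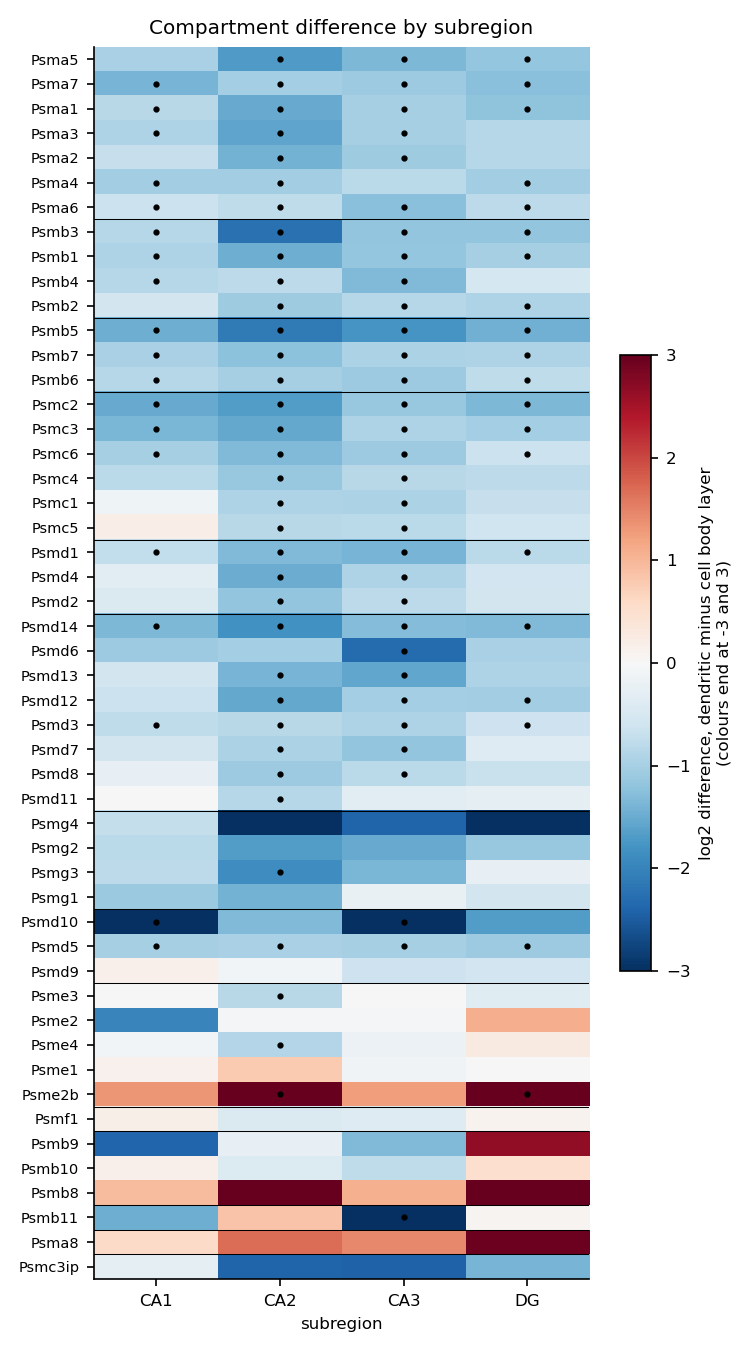
Log2 difference between dendritic and cell body layers of each member (rows, grouped by role) in each subregion (columns); dots mark an adjusted p below 0.05, and colours end at -3 and 3. The 31 structural subunits in the upper rows are blue in nearly every cell, with Psmc5 in CA1 at 0.19.

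Tested directly, the compartment difference changed between subregions for 1 member, in CA2, where 7.17% of genes passed. This was Psmb3, whose dendritic minus cell body difference was -2.25 in CA2 and lower there by 1.17 than in the mean of the other subregions (adjusted p = 0.0368, limma). Psmb3 had 8.89, 9.77 and 8.84 in CA2 dendrites of mice 492, 496 and 502, against 11.30, 11.18 and 11.76 in CA2 cell bodies. The 2 lower dendritic values are those of mice 492 and 502, whose CA2 dendritic libraries have a repeat. The adjusted p was 0.323 without the 4 libraries of that kind, which leaves 1 CA2 dendritic library, 0.209 without mouse 492, 0.0607 without mouse 496 and 0.283 without mouse 502. Under quantile normalization the difference was -0.76 (adjusted p = 0.265, limma). For CA1, CA3 and DG, 0 members passed in limma (6.37%, 1.73% and 4.29% of genes), with 2, 3 and 1 at an unadjusted p below 0.05. The shares of genes are at the adjusted level, and none was taken at the unadjusted level, so these counts cannot be compared with them.

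Among dendritic layers, CA1 was compared with the mean of the others first. Psmb2, Psmc1 and Psmc5 passed as higher, by 0.61, 0.66 and 0.67 (adjusted p = 0.0485, 0.0328 and 0.0309, limma), where 13.2% of genes passed. Psmc5 had 11.37, 11.38 and 10.35 in CA1 dendrites, against 9.59 to 10.96 in the other dendritic layers. These calls did not hold under other scalings: the differences were 0.20, 0.21 and 0.24 under quantile normalization, and other subunits then passed as lower in CA1 dendrites. These were Psma7 and Psmc2 under quantile normalization (-0.83 and -0.70, adjusted p = 0.0163 and 0.0292, limma), 4 subunits when scaled to totals (Psma7, Psmb7, Psmc2 and Psmc3) and 3 when scaled to totals outside the mitochondrial genome (Psma7, Psmc2 and Psmc3), with 0 higher under each. The direction of the calls in CA1 dendrites thus turned with the scaling. Leaving out mice 492 and 496 of CA1 dendrites, the libraries with the fewest genes at the limit (15947 and 16656, against 17823 to 20480 in the other dendritic libraries), 0 members passed in limma, and the values were 0.25, -0.0031 and 0.11. That comparison has 1 CA1 dendritic library left, which is assumed to vary like the other groups, and a call missed there says little about stability. In CA2 and CA3 dendrites 0 members passed in limma (2.57% and 2.16% of genes), with 6 and 7 at an unadjusted p below 0.05. No share of all genes was taken at the unadjusted level, so the 6 and 7 cannot be set against the percentages.

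In DG dendrites Psmb9 passed as higher and Psme3 as lower, where 6.96% of genes passed. Psmb9 had 4.45, 5.18 and 5.54 in DG dendrites, against 0, 4.94 and 6.88 in CA2 dendrites and 0 in all 6 dendritic libraries of CA1 and CA3. The adjusted p of 0.0332 was 0.119 to 0.213 when each mouse was left out and 0.0561 without the mouse block. Psme3 was lower by 0.60 (adjusted p = 0.0462, limma), and by 0.32 under quantile normalization (adjusted p = 0.297).

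Among cell body layers, DG stood apart in the deposited values. There 12 members fell relative to the mean of the others, where 13.7% of genes fell, and the median difference of the structural subunits was -0.55. Cell type markers moved with it. In DG cell bodies 11 of 12 neuronal markers (median -1.57), 11 of 13 oligodendrocyte and 6 of 6 oligodendrocyte precursor markers fell. So did 10 of 14 interneuron and 9 of 14 astrocyte markers, while all 12 granule cell markers rose. The neuronal markers summed to 254995 to 269773 in DG cell bodies and to 437050 to 1035101 in the other cell body layers. The part of these cell types in the fall of the members was not tested. Psmd7, a lid subunit, had 10.65, 10.71 and 10.67 in DG cell bodies, against 11.35 to 11.85 in the others, with no overlap and a difference of -0.87 (adjusted p = 0.00136, limma). Psmd1, Psmb10 and Psmc6 fell by 0.74, 1.76 and 0.76 on the log2 scale. Scaling decided these calls: 1 member, Psmb10, passed under quantile normalization (-1.44, adjusted p = 0.0202, limma) and under either scaling to totals (-1.16 and -1.17, adjusted p = 0.0436 and 0.0474, limma). Psmb10 had 6.24, 7.42 and 7.68 in DG cell bodies of mice 492, 496 and 502, against 8.12 to 9.58 in the other cell body layers, without overlap. With each mouse left out its difference was -1.16 to -2.21 (adjusted p = 0.0469, 0.0415 and 0.0158 without mice 492, 496 and 502, limma). The median of the structural subunits was -0.11 under quantile normalization and 0.06 when scaled to totals, where that of all genes tested was 0.48. Without mouse 492 the count of members was 4 and without mouse 502 it was 3. The share of the structural subunits in the total was 0.207% to 0.227% in DG cell bodies and 0.201% to 0.218% in the others. Psmd1 was higher in CA2 cell bodies, by 0.57 (adjusted p = 0.0313, limma; 8.97% of genes passed), but by 0.21 under quantile normalization (adjusted p = 0.443). In CA1 and CA3 cell bodies 0 members passed in limma (5.98% and 7.04% of genes), with 0 and 7 at an unadjusted p below 0.05. Here too no share of all genes was taken at the unadjusted level.

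Transcripts of 25 members could be compared within a gene, and 10 changed unequally between compartments, where 19.7% of genes tested did (limma's diffSplice). In Psmc2 the protein-coding transcript had a difference of -1.73, from 8.84 to 10.51 in dendritic layers and from 11.27 to 11.95 in cell body layers. Its transcript with a retained intron differed by -0.13, from 6.66 to 8.83 in dendritic layers and from 6.91 to 8.22 in cell body layers. The gene-level adjusted p was 0.00235.
In Psmd12 one protein-coding transcript had a difference of -1.55 and a second, shorter one 2.11 (adjusted p = 0.000893). The shorter one was estimated from 2.24 to 8.88 in dendritic layers and from 2.84 to 6.58 in cell body layers, so its ranges overlapped. In Psmc3 the main transcript had a difference of -1.79 and a shorter coding one 3.68 that was estimated from 2.04 to 9.34 in dendritic layers and from 1.65 to 7.55 in cell body layers (adjusted p = 7.21e-06). The other 7 were Psmg1, Psmg3, Psme1, Psma7, Psmc5, Psmd9 and Psme2. Without mouse 496 the count was 3 and without mouse 502 it was 6.

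Other parts of the ubiquitin and proteasome system were counted from lists, beside which 25.4% of all genes tested fell and 19.8% rose. All 7 proteasome parts named outside the prefix fell, among them the ubiquitin receptor Adrm1 (-1.11), the deubiquitinase Usp14 (-1.14) and the core assembly factor Pomp (-0.70). Of 8 shuttle receptors, which carry substrates to the proteasome, 5 fell and Ubqln4 (0.80) and Bag6 (0.24) rose. By subregion Bag6 passed in CA1 alone, at 0.85, and was at -0.18 in CA2.
Both ubiquitin-activating enzymes fell, as did 5 of 7 deubiquitinases, with Uchl1 at -2.02, and 4 of 6 segregase genes. Of 15 neuronal ubiquitin ligases 8 fell, with Nedd4l at -1.23, and 4 rose, with Fbxo2 at 1.91 and Rnf10 at 1.47. Of 11 genes of MHC class I and the interferon response 8 rose and 0 fell, with H2-K1 at 3.29. Tap1, at 0.18 in the mean, fell in CA1 (-3.88) and rose in CA3 (2.91). Of 9 regulators of proteasome genes 4 rose, including Nfe2l2 (3.05) and Nfe2l1 (0.39), and 2 fell. The mean of Nfe2l1 hides opposite signs, at 1.465 in CA1 and 0.76 in DG but -0.27 in CA2 and -0.37 in CA3.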

How the data were processed

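The gene table holds log2 values that the authors deposited, made from Salmon estimates and median normalized, per the file headers. The transcript table, also deposited as log2 values, covers these 24 libraries. The submitters' processing notes list STAR 2.5.1b, Salmon 0.9.1, featureCounts 1.5.1, limma 3.32.2, DESeq2 1.18.1 and mm10, without roles. Depth per library is unknown from these values, so no interval for counting error is given. Copies or overlapping genes may split reads, and how strand was used is unstated. The labels do place the 3 mice in separate litters.

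limma 3.58.1 (R 4.3.3) was fitted to 24911 genes with 8 groups, mouse as a block and 14 residual degrees of freedom, trended and robust. It gave 17 comparisons, Benjamini-Hochberg adjusted over all genes and called below 0.05. The block was kept because the labels assign 8 libraries to each mouse. Deviations of libraries from the same mouse correlated at -0.0517 to 0.0676 (84 pairs, 0 over 0.1). Unlogged values are 2 to the power of the log2 value. From them 1 was subtracted for the values per kilobase and the scaling to totals, but not for the library shares and marker sums. The scripts were tested on simulated data. The transcript test first missed the share of planted changes set as its pass mark, which was then lowered with the method unchanged.

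The members and lists were chosen with earlier results of these data known. Named were the catalytic, activator, inhibitor and tissue-specific members, the largest and smallest difference in each role, members called against the majority, and up to 4 called members per other comparison. Further members were named after their values were seen. The scaling to totals was corrected after a first run, since its first form moved values at the floor of 0. Alternatives were another normalization, pseudocount or limit, no block, and libraries or mice left out. Annotation was GENCODE vM21 on GRCm38. The 4 repeat libraries had no column, and 12 array columns were not used. The ubiquitin genes themselves are not reported here.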

Additional observations from a re-analysis of the deposited data

Results flagged for a closer look

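The compartment difference of Psmb3 in CA2 was lower than in the mean of the other subregions by 1.17 on the log2 scale, at -1.171 (adjusted p = 0.0368, limma), which is a difference between groups under the same contrast. In the deposited values it was the one member of 50 to pass this test in any subregion. It did not pass without any one mouse or under the other scalings.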

How the results depend on the processing

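Counts here join calls as lower and as higher unless a direction is named. The count of members called between compartments over all subregions stayed between 34 and 46 (40 as reported). The share of all genes tested that fell moved too. It was 17.1% without mouse 502, which gave the 34, and 39.9% scaled to totals, which gave the 46, against 25.4% as reported. With no replicate block, the pairing by mouse, DG dendrites had 1 call in place of 2, and no other count of members moved by over 1.5 times. Under quantile normalization the calls were 29 in CA1 and 31 in DG, 0 for the CA2 interaction, 1, 1 and 0 for CA2, CA3 and DG dendrites, and 0 and 1 for CA2 and DG cell bodies. Scaled to totals they were 38 and 36, 0, then 1, 2 and 1, and for CA2, CA3 and DG cell bodies 0, 1 and 1. Scaled to totals outside the mitochondrial genome they were 30 in CA1, 20 in CA2 and 32 in DG. The CA2 interaction kept 1 call there, but as higher and not of a structural subunit, so Psmb3 was lost. Dendrites of CA2, CA3 and DG had 3, 1 and 1 calls, and their cell bodies 0, 1 and 1. In CA1 dendrites the 3 calls as higher became 2 as lower under quantile normalization, 4 as lower scaled to totals and 3 as lower scaled to totals outside the mitochondrial genome. With 10 added before the log DG dendrites had 1 call. Without the limit on low values the CA2 interaction had 0, CA1 dendrites 1 and DG dendrites 1. At a limit of 100 the CA1 interaction had 1, CA1, CA3 and DG dendrites 5, 1 and 1, CA2 and CA3 cell bodies 2 and 1, and unequal transcripts 6. Without the 4 libraries that have a repeat, which leaves 1 dendritic library in CA2 and in DG, DG had 2, the CA2 interaction 0, CA1 and DG dendrites 0 and 0, and CA2 and DG cell bodies 3 and 13. Without mice 492 and 496 of CA1 dendrites, with 1 library left, CA1 dendrites had 0 and CA2 and CA3 cell bodies 4 and 2. With each mouse left out the counts were 7 to 15 in CA1, 19 to 33 in CA2, 12 to 28 in CA3, 2 to 19 in DG, 0 for the CA2 interaction, 0 to 5, 0 to 1 and 0 for CA1, CA3 and DG dendrites, 0 for CA2 and 3 to 8 for DG cell bodies, and 3 to 8 for transcripts. The causes were not tested.

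Psmb9 minus Psmb6 passed at 1.11 with 10 added before the log. Psmb8 minus Psmb5 ranged from 3.16 to 5.74 with each mouse left out and was 2.88 without the 4 libraries that have a repeat. Directions turned for Psme1 scaled to totals (-0.30), for Psmb9 and Psme2 with 10 added (0.20 and 0.025), for Psme2 without mice 492 and 496 of CA1 dendrites (0.34), for Psmc1 in CA1 dendrites without them (-0.0031), and among the left-out mice for Psme2 (-0.86 to 0.58) and Psmf1 (-0.28 to 0.037, and -0.31 without the 4 libraries). Of the values of single members under alternatives, 574 kept direction and side of the threshold, 87 lost the call and 11 gained it. Low members such as Psmb8, Psmb9 and Psmg4 are limited by libraries at 0.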
